A study of Homo sapiens with 6 samples.

Results

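The anaplastic lymphoma kinase gene ALK, its closest relative LTK, the genes of their ligands ALKAL1 and ALKAL2, the growth factor genes PTN and MDK and the receptor phosphatase gene PTPRZ1 were followed in neuroblastoma (NB) cells before and after acquired resistance to an ALK inhibitor. The 7 genes were taken by name, from the probe sets to which the platform annotation gives a single symbol. In all, 6 of the 7 were measured, by 11 probe sets, among 19775 genes and 41091 single-symbol probe sets. ALKAL1 was named by no probe set and was not analysed here. RNA of each line was read on 3 Affymetrix U133 Plus 2.0 arrays. SH-SY5Y is a human NB line that carries ALK F1174L and was grown in medium alone. SY5Y-TR1 is a subclone expanded from SH-SY5Y cells after long exposure to rising doses of the ALK inhibitor TAE684; it carries the same mutation and was kept in 1 μM TAE684. Resistance, the drug in the medium and the choice of 1 subclone therefore cannot be told apart. The samples are called biological replicates in the labels without a word on separate cultures. The p-values here weigh a difference between the lines only against the spread of these samples, which may be technical.

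ALK and LTK are receptor tyrosine kinases of the insulin receptor superfamily. Both are switched on by the small secreted proteins ALKAL1 and ALKAL2, and activating mutations such as F1174L make ALK signal without a ligand. ALK is expressed in the developing sympathetic nervous system, the tissue from which NB arises. Pleiotrophin, made from PTN, and midkine, made from MDK, are related heparin-binding growth factors of the developing nervous system. Both were once proposed as ALK ligands, a role that has been disputed. Their better established receptor is PTPRZ1, a transmembrane tyrosine phosphatase of glial and neural progenitor cells that is inactivated when pleiotrophin binds.

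PTN was 10.6-fold lower in SY5Y-TR1 cells and was the only one of the 6 measured genes that passed the limits for a changed gene, a change of 2-fold or more and p under 0.05 after Benjamini-Hochberg adjustment in limma. MDK, the other gene of that growth factor family, was 1.21-fold lower. ALK, the target of the drug, lay near or under the background level on all 6 arrays, and LTK was 1.54-fold higher. ALKAL2 and PTPRZ1 were not above that level in either line. Over all genes, 5.99% passed as lower and 5.36% as higher, and the 1 in 6 here is a count over too few genes to be read against these shares.

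The bases upstream of PTN, the gene that fell, and of ALK, the gene of the drugged kinase, are shown because these starts of transcription differ in composition. Each is the stretch of 250 bases before the transcription start in RefSeq (GRCh38.p14), printed 5′ to 3′ on the gene's own strand. Capitals mark E-boxes, the CANNTG motif that basic helix-loop-helix factors bind. The PTN stretch lies on chromosome 7 (chr7:137343734-137343983, minus strand) and that of ALK on chromosome 2 (chr2:29921587-29921836, minus strand).
PTN: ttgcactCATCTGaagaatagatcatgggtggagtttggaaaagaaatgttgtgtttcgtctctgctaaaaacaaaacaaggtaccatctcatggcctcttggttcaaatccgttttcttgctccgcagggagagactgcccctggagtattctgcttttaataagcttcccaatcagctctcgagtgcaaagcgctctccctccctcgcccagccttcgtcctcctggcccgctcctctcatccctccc
ALK: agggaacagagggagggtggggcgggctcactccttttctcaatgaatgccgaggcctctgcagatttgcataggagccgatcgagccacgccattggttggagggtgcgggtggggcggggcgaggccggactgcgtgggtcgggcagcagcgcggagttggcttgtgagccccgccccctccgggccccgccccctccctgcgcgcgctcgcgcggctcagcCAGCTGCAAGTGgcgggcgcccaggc
G and C made up 50.4% of the PTN stretch and 71.6% of that of ALK, against a median of 58.0% over 35116 promoters. The other 3 stretches in the table had G and C shares of 66.0% for LTK, 78.4% for ALKAL2 and 73.2% for PTPRZ1. An E-box was found once upstream of PTN, once upstream of LTK and at 2 places upstream of ALK, and 61.8% of all promoters hold at least 1. The AP-1 motif TGANTCA, the TEAD motif GGAATG, the homeodomain core TAATTN and the GATA motif AGATAA, each searched on both strands, were found in none of the 5 stretches. They occur in 6.57%, 11.9%, 23.0% and 9.17% of promoters of this length. A match or its absence describes these letters only. Promoters of MDK and ALKAL1 were not analysed here.

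Values are log2 signals after robust multi-array average (RMA), so that 1 unit is a doubling, and a level can be compared between lines for a probe set but not between probe sets. As no detection calls were used, a background level of 5.77 was set as the 90th percentile of 52 measured genes of unrelated tissues, such as liver and muscle. Array medians lay between 5.56 and 5.59 on the log2 scale, and precision is limited by having 3 arrays a line. Pearson's r across probe sets was at least 0.997 within a line and at most 0.960 between the lines. Of 12 measured sympathetic neuroblast markers, 9 were lower in SY5Y-TR1 and 3 did not pass, and the log2 of their summed signals went from 14.81 to 14.86 in SH-SY5Y to 12.31 to 12.38 in SY5Y-TR1. Of 12 mesenchymal markers 11 were higher, with summed signals of 14.91 to 14.94 and 16.23 to 16.31. The marker that did not pass was the brightest in both lines, with means of 14.28 and 14.55 (log2 fold change 0.27). Sums over different probe sets weigh the brightest most. With the mean of all probe sets 10 of the 12 were higher, as after centring on housekeeping genes and without SH-SY5Y replicate 2. All marker counts here stand beside 5.36% of all genes called higher and 5.99% called lower. The mesenchymal list includes AXL, TWIST2, SNAI2, VIM and FN1, which the paper reported as higher from these same arrays. Its count is therefore no independent evidence. The 4 measured Schwann cell markers did not pass and had summed signals of 7.25 to 7.32 and 7.28 to 7.43, with CDH19 and S100B under the background level in both lines. The endothelial markers did not pass in any of 6 cases, with sums of 7.51 to 7.69 and 7.78 to 7.86. Of 5 blood cell markers 1 was higher, the lysosomal membrane gene LAPTM5 (at least 1.72-fold, and not called with values raised to the background level), with sums of 6.70 to 6.84 and 7.40 to 7.50, whereas PTPRC and CD3E lay under the background level in both lines. Whether the shift of these marker lists had a part in the changes of PTN and the other genes here was not tested. In such bulk RNA, fewer cells that express a gene and less RNA of it per cell cannot be told apart.

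The brightest PTN probe set (211737_x_at) read log2 signals of 13.63, 13.69 and 13.61 on the SH-SY5Y arrays and 10.22, 10.21 and 10.28 on the SY5Y-TR1 arrays. All SY5Y-TR1 arrays lay far below all SH-SY5Y arrays, and the arrays of a line lay close together. The means were 13.64 ± 0.04 and 10.24 ± 0.04 (SD, n = 3 arrays in each line), a log2 fold change of -3.41 (standard error 0.05, adjusted p = 1.45e-08 from limma). On the linear scale SY5Y-TR1 cells held 9.44% of the SH-SY5Y signal, and the 95% interval of the fold ran from 9.84 to 11.4. PTN thus remained far above the background level in SY5Y-TR1, by 4.47 log2 units, and in SH-SY5Y it lay 7.87 units above it. Ordered by log2 fold change from the most negative, PTN was number 138 of 19775 genes.

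PTN was read by another 3 probe sets, and they did not all behave alike. Probe set 209466_x_at read 13.33, 13.37 and 13.28 in SH-SY5Y and 9.73, 9.56 and 9.60 in SY5Y-TR1, a 12.9-fold decrease. Probe set 209465_x_at read 12.14, 12.08 and 12.20 in SH-SY5Y and 8.74, 8.49 and 8.68 in SY5Y-TR1, an 11.3-fold decrease. These 3 probe sets passed as lower, as did 4.58% of all 54613 probe sets, and all have names ending in _x_at, the manufacturer's mark for probes that can also match other transcripts. Probe set 208408_at, the only PTN probe set without that mark, read 4.01, 4.02 and 4.16 in SH-SY5Y and 4.25, 4.25 and 4.21 in SY5Y-TR1. It lay under the background level in both lines, gave a log2 difference of 0.18 (standard error 0.06) in the opposite direction and did not pass (adjusted p = 0.0519 from limma over all probe sets). The decrease of PTN therefore rests on the 3 probe sets with the mark, and when probe sets with shared-sequence names were left out PTN was not called.

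**Figure D1:**
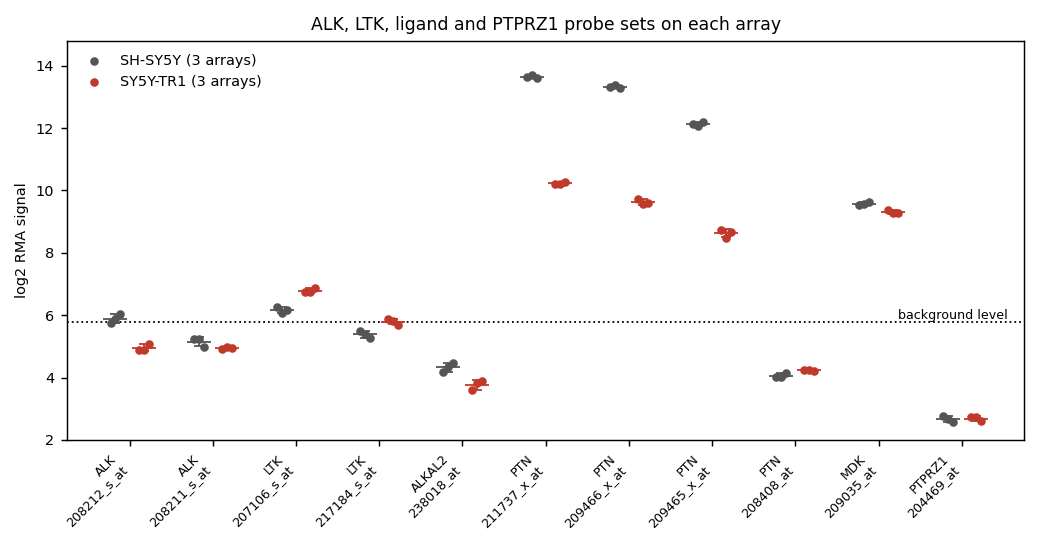
Log2 RMA signal (y axis) of each of the 11 probe sets (x axis, with gene and probe set name) on the 3 SH-SY5Y arrays (grey points) and the 3 SY5Y-TR1 arrays (red points); short bars mark means with their SD, and a dotted line marks the background level of 5.77. The 3 bright PTN probe sets drop from between 12.08 and 13.69 to between 8.49 and 10.28, whereas the fourth PTN probe set, ALKAL2 and PTPRZ1 stay under the dotted line in both lines.

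MDK was measured by a single probe set (209035_at). It read 9.54, 9.58 and 9.62 in SH-SY5Y and 9.38, 9.26 and 9.29 in SY5Y-TR1. The lines did not overlap, but they lay close to each other. In limma MDK differed by -0.27 log2 units (standard error 0.05, adjusted p = 0.00296), a 1.21-fold decrease with a 95% interval from 1.11-fold to 1.31-fold, which stays under the 2-fold limit. MDK lay 3.81 log2 units above the background level in SH-SY5Y and 3.54 units above it in SY5Y-TR1.

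The growth factor genes changed unequally. The log2 signal of PTN minus that of MDK, taken within each array, was between 3.98 and 4.11 in SH-SY5Y and between 0.84 and 0.99 in SY5Y-TR1, a change of -3.14. In a two-sided exact permutation test over the 6 arrays this gave p = 0.1, the smallest that 3 arrays against 3 allow, and the adjusted p was 0.1 over 2 such comparisons. The other, LTK against ALK, is given no value because ALK lay under the background level on the SY5Y-TR1 arrays. Only the change of this difference can be read, since the level of a probe set depends on its probes.

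ALK was dim. Its brighter probe set (208212_s_at) read 5.74, 5.87 and 6.03 in SH-SY5Y and 4.90, 4.90 and 5.09 in SY5Y-TR1. The SY5Y-TR1 arrays were all lower than the SH-SY5Y arrays, but only 2 SH-SY5Y arrays exceeded the background level of 5.77, and no SY5Y-TR1 array did. The means were 5.88 ± 0.14 and 4.96 ± 0.11 (SD, n = 3 arrays each), and limma gave a log2 fold change of -0.92 (standard error 0.09, adjusted p = 9.88e-05), within the 2-fold limit. Against the background level the decrease was at least 1.08-fold, and with a level set at the 95th percentile of the same genes, 6.34, no array of either line was above it. The other probe set (208211_s_at) read 5.24, 5.22 and 4.99 in SH-SY5Y and 4.92, 4.98 and 4.96 in SY5Y-TR1, under the background level throughout. Its log2 difference was -0.19 (standard error 0.08) and did not pass (adjusted p = 0.0861 from limma over all probe sets). For the brighter probe set the 95% interval of the decrease ran from 1.63-fold to 2.19-fold, which includes the 2-fold limit. Its SH-SY5Y mean lay only 0.11 log2 units above the background level, so the size of the ALK decrease is uncertain. By western blot the paper found phosphorylated ALK protein in SH-SY5Y, and less of it in the resistant subclones. A dim array signal is therefore not to be read as absence of ALK.

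LTK was the only measured gene of the group with a higher signal in SY5Y-TR1 and arrays above the background level. Its brighter probe set (207106_s_at) read 6.25, 6.06 and 6.16 in SH-SY5Y and 6.75, 6.73 and 6.87 in SY5Y-TR1. The lines did not overlap, and limma gave a log2 fold change of 0.63 (standard error 0.07, adjusted p = 0.000153), a 1.54-fold difference with a 95% interval from 1.39-fold to 1.72-fold. The other probe set (217184_s_at) read 5.48, 5.41 and 5.26 in SH-SY5Y and 5.87, 5.80 and 5.70 in SY5Y-TR1, also without overlap, with a log2 difference of 0.41 (standard error 0.08). All of these values lie close to the background level, and with the level at the 95th percentile every SH-SY5Y array of the brighter probe set was under it, so that the fold is then no exact value.

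ALKAL2, which encodes the ligand also known as FAM150B or augmentor alpha, was measured by 1 probe set (238018_at). It read 4.19, 4.34 and 4.48 in SH-SY5Y and 3.59, 3.84 and 3.90 in SY5Y-TR1. The SY5Y-TR1 arrays were lower without overlap, and limma gave a log2 difference of -0.56 (standard error 0.10, adjusted p = 0.00299). With means 1.43 and 1.99 log2 units under the background level, no fold is given. PTPRZ1 (204469_at) read 2.78, 2.68 and 2.59 in SH-SY5Y and 2.73, 2.73 and 2.61 in SY5Y-TR1. Its arrays overlapped near the bottom of the scale, with a log2 difference of 0.00 (95% interval -0.15 to 0.16). At these signals no level of ALKAL2 or PTPRZ1 was detectable. The ALKAL2 difference lies wholly under the background level, so its size is uncertain, and PTPRZ1 showed no difference.

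**Figure D2:**
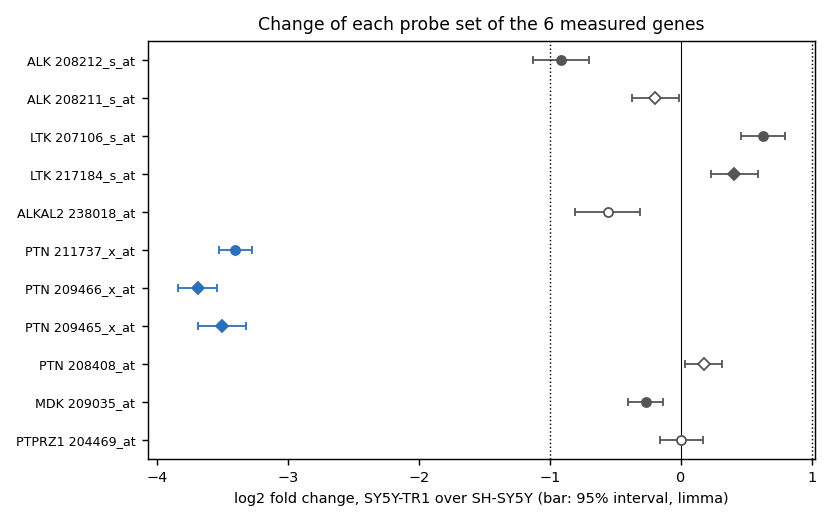
Log2 fold change of SY5Y-TR1 over SH-SY5Y (x axis) for each probe set (y axis), with the 95% interval from limma as a horizontal bar (3 arrays a line); circles are the brightest probe set of a gene and diamonds the others, open symbols lie under the background level in both lines, blue symbols passed as lower, and dotted lines mark 2-fold. The 3 blue PTN probe sets lie between -3.69 and -3.41, and every other probe set lies between -0.92 and 0.63.

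An adjusted p under 0.05 without a fold limit was reached by 5 of the 6 measured genes, PTPRZ1 being the exception, but 52.8% of all genes reached it, and the median SD within a line was only 0.07 log2 units. Every gene that differed by 2-fold or more, 1060 higher and 1185 lower, also had an adjusted p under 0.05, so it is the fold limit that sets these counts. The median log2 fold change of the 6 genes was -0.41 and that of all genes 0.04. ALK, LTK, PTN and MDK, 4 of the 6, exceeded the background level in a line or in both, compared with 66.0% of all genes.

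**Figure D3:**
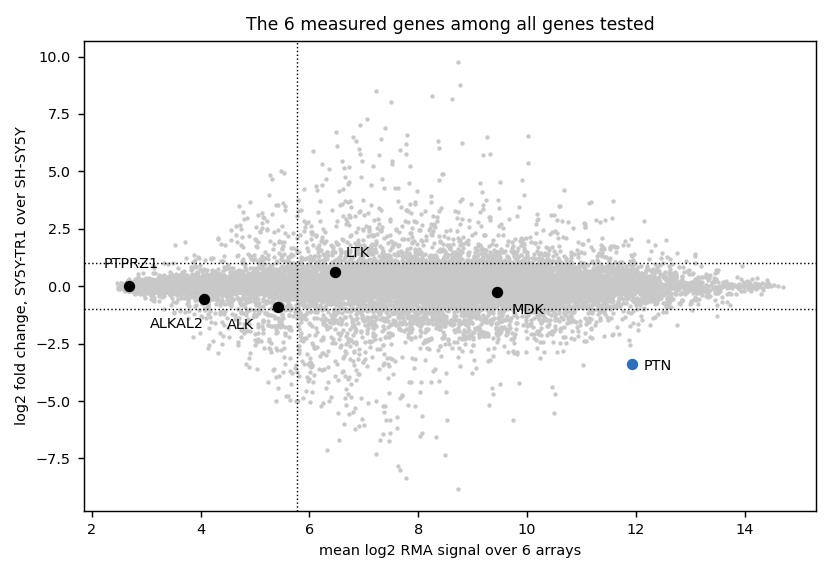
Mean log2 RMA signal over 6 arrays (x axis) and log2 fold change of SY5Y-TR1 over SH-SY5Y (y axis) for all 19775 genes (grey points), with the 6 measured genes as large labelled points, PTN in blue because it passed as lower; the dotted vertical line is the background level of 5.77 and the dotted horizontal lines mark 2-fold. PTN sits at -3.41 among the bright genes, and PTPRZ1, ALKAL2 and ALK sit to the left of the background level.

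The counts over the lists that follow are to be read beside the 5.36% of all genes called higher and the 5.99% called lower. Most transcripts of related kinases and of the proteins that carry the ALK signal stayed within 2-fold. Of the 4 other kinases of the insulin receptor superfamily measured (INSR, IGF1R, INSRR and ROS1), 1 was lower and 3 did not pass, with a median log2 fold change of -0.18. The gene that passed was IGF1R, the receptor of insulin-like growth factors, 2.10-fold lower at 10.71 ± 0.08 in SH-SY5Y and 9.64 ± 0.24 in SY5Y-TR1 (SD, n = 3 arrays each). Only 1 of its 5 probe sets passed, and with their mean IGF1R was not called (log2 fold change -0.42). Among 19 measured adaptors and proximal signalling genes SHC4 was higher, IRS1 and GAB1 were lower and 16 genes did not pass, the median being -0.16. SHC4, an adaptor of the SHC family, rose 2.33-fold through both of its probe sets, from a mean of 6.04 near the background level, and was not called with values raised to the 95th percentile level (log2 fold change 0.92). The docking protein genes IRS1 and GAB1 were 2.19-fold and 2.18-fold lower, through 1 of 3 and 3 of 7 probe sets, and neither was called with the mean of its probe sets (log2 fold changes -0.56 and -0.75). Among genes not called, SHC1 had a probe set that passed as higher (201469_s_at, 2.19-fold) and PIK3R1 had 2 of 3 that passed as lower (the brighter, 212240_s_at, 2.52-fold), and with the mean of its probe sets PIK3R1 was called lower (log2 fold change -1.15). None of the 7 phosphatase and chaperone genes that act on ALK passed. None differed by 2-fold or more at its brightest probe set, so no test with that limit could call one. At an unadjusted p under 0.05 in limma with any fold, 3 were higher and 3 lower. The brightest, HSP90AA1 and HSP90AB1, had log2 fold changes of -0.14 and -0.15.

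Transcripts known to respond to ALK signalling in NB cells moved in both directions. Of 16 measured, 3 rose, 3 fell and 10 did not pass, where 5.36% of all genes were called higher and 5.99% lower, and the median log2 fold change was 0.13 against 0.04 over all genes. The genes that rose were all dual-specificity phosphatases that switch off MAP kinases. DUSP4 was 3.77-fold higher, DUSP6 2.84-fold and DUSP5 2.41-fold, and each of their 7 probe sets passed. The genes that fell were the receptor tyrosine kinase gene RET and the immediate-early transcription factor genes FOS and EGR1. RET fell from 10.89 ± 0.03 to 3.57 ± 0.08 (SD, n = 3 arrays each), a decrease of at least 34.8-fold against the background level. FOS was 9.55-fold lower, although its mean of 5.95 in SY5Y-TR1 lies close to the background level, and EGR1 was 3.83-fold lower. The 10 others had log2 fold changes from -0.17 to 0.56, among them MYCN, the NB oncogene whose transcription ALK raises, whose brightest probe set (211377_x_at) gave 0.19 (standard error 0.11, adjusted p = 0.207 from limma). The MYCN probe sets disagreed, since 209757_s_at passed as lower, from 6.58 ± 0.08 to 4.13 ± 0.16 (SD, n = 3 arrays each), at least 1.76-fold, and the other 8 did not pass.

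Of 18 measured genes of proteins that bind pleiotrophin or midkine, 3 rose, 0 fell and 15 did not pass, and the median log2 fold change was 0.20. Over all genes 5.99% were called lower, so a count of 0 in 18 is near the background share. None of the 18 fell by 2-fold or more at its brightest probe set, so no test with that limit could call one lower. At an unadjusted p under 0.05 in limma with any fold, 9 were higher and 5 lower. SDC2, a related proteoglycan gene, had 1 probe set that passed as lower (212157_at, 2.15-fold), but not its brightest. SDC4, a cell surface heparan sulphate proteoglycan, was 2.88-fold higher. ITGA4, the integrin alpha 4 chain, was 2.10-fold higher through all 4 of its probe sets. SDC3, also called N-syndecan and a receptor of pleiotrophin on neurons, was 2.01-fold higher at 8.34 ± 0.01 against 7.34 ± 0.05 (SD, n = 3 arrays each). It passed through 1 of 2 probe sets, at the edge of the fold limit. The call was lost after centring on housekeeping genes (log2 fold change 0.95), with the mean of its probe sets (0.62) and without SH-SY5Y replicate 1 or 2 (1.00, just under the limit, and 0.98). ITGA6, among the genes that did not pass, was called higher with the mean of its probe sets (log2 fold change 1.09). The same held without SH-SY5Y replicate 3 (1.05) or without SY5Y-TR1 replicate 1 (1.01).

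Of 13 measured relatives, ligands and substrates of PTPRZ1, 1 rose, 3 fell and 9 did not pass, and the median log2 fold change was -0.02. The neural adhesion gene NRCAM, whose product binds the PTPRZ1 ectodomain, fell from 10.67 ± 0.06 to 4.29 ± 0.36 (SD, n = 3 arrays each), at least 30.0-fold. CNTN1, which encodes the neuronal ligand contactin-1, fell at least 4.52-fold, with 3 of its 4 probe sets passing. ADD2, which encodes the cytoskeletal protein beta-adducin, was 2.15-fold lower through 2 of 6 probe sets and was not called with their mean (log2 fold change -0.57). PXN, the gene of the focal adhesion protein paxillin, was 2.67-fold higher through 1 of 2 probe sets and was not called with their mean (0.85). TNC, among the genes of this list that did not pass, was called higher without SY5Y-TR1 replicate 1 (log2 fold change 1.02).

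**Figure D4:**
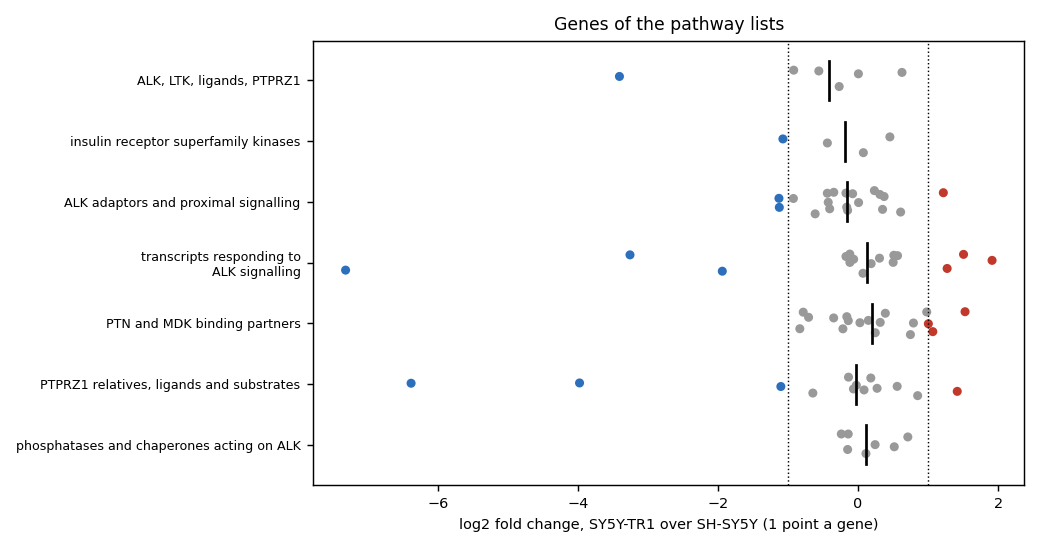
Log2 fold change of SY5Y-TR1 over SH-SY5Y (x axis) of each measured gene of the 7 lists (y axis), 1 point a gene; red points passed as higher, blue as lower and grey not at all, vertical bars are list medians and dotted lines mark 2-fold. The medians lie between -0.41 and 0.20, and the points farthest to the left are RET at -7.32 and NRCAM at -6.38.

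The neighbours of the 7 genes on their chromosomes were compared in the same way. ALK and ALKAL2 both lie on chromosome 2, and PTN and PTPRZ1 both on chromosome 7. Of the 28 nearest measured protein-coding genes, 4 for each of the 7 genes, 4 rose, 1 fell and 23 did not pass, against 5.36% higher and 5.99% lower over all genes, and nothing is read from counts this small. Next to ALK, the microtubule-binding protein gene CLIP4 was 4.73-fold higher and YPEL5 2.34-fold higher, whereas the ALK signal was lower. The immediate neighbours of PTN went in opposite directions. CHRM2, a muscarinic acetylcholine receptor gene, was at least 1.09-fold lower, with a log2 fold change of -1.66 from a signal near the background level, and DGKI, a diacylglycerol kinase gene, was 2.13-fold higher. Near MDK, the transcription factor gene CREB3L1 was 6.10-fold higher, from a mean of 5.73 in SH-SY5Y that lies at the background level. None of the neighbours of LTK, ALKAL1, ALKAL2 and PTPRZ1 passed. They include TYRO3, a relative of AXL that lies close to LTK on chromosome 15, at a log2 fold change of -0.59.

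**Figure D5:**
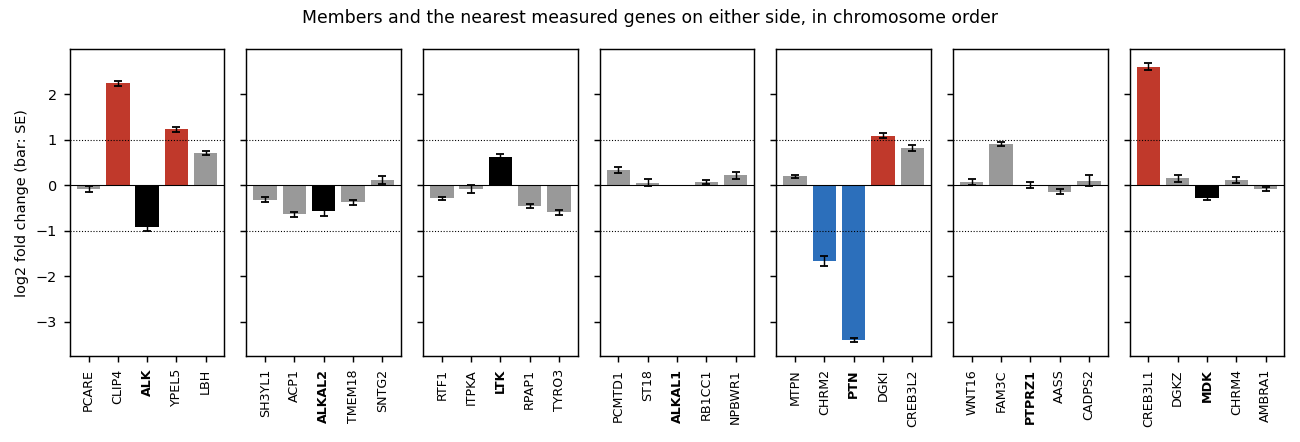
Log2 fold change of SY5Y-TR1 over SH-SY5Y with its standard error (y axis, n = 3 arrays in each line) for each of the 7 genes (bold name; ALKAL1 has no bar) and the 2 nearest measured protein-coding genes on either side (x axis, in chromosome order, not to scale); red bars passed as higher and blue as lower, black and grey did not pass, and dotted lines mark 2-fold. CLIP4 and YPEL5 rise on both sides of ALK, and CHRM2 and DGKI flank PTN with opposite signs.

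To place PTN, MDK and LTK among the other genes, the 6 values of each were set to its own SH-SY5Y mean and compared with those of 13044 genes by the root mean square difference. Nearest to PTN were EFS, the gene of an SRC-binding adaptor, FGF14, which encodes an intracellular modulator of sodium channels, and FXYD6, which encodes a regulator of the sodium pump, at differences of 0.06, 0.07 and 0.09 log2 units. EFS was 11.1-fold lower. FGF14 lay under the background level on all SY5Y-TR1 arrays and was at least 9.81-fold lower, and FXYD6, with 1 SY5Y-TR1 array above that level, was 10.3-fold lower, so for both the likeness to PTN rests partly on values at background. The genes nearest to MDK were KIAA1143, ERG28 and PPA2, at differences of 0.02 log2 units each. Nearest to LTK were FUOM, FAAP20 and PLAAT3, at 0.02 to 0.03 log2 units. No likeness is given for ALK, whose SY5Y-TR1 values all lay under the background level. With 3 arrays in each of only 2 lines, this likeness describes little more than an equal size of change.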

How the data were processed

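Gene expression was measured in 3 SH-SY5Y and 3 SY5Y-TR1 samples, grouped by their labels. The deposited values are log2 signals. The authors obtained them by RMA with Affymetrix Expression Console (version not given in the sources used here). RMA subtracts background, makes the distributions of the arrays equal and combines the probes of a set, and these steps were not varied from scanner files. Probe sets were named through the platform annotation, checked against RefSeq (GRCh38.p14) by gene ID. Control probe sets (62) were dropped, leaving 54613; of these, 1801 with several symbols and 11721 with none were named for no gene. Where several probe sets named a gene, the brightest by mean signal stood for it. The lines were compared across all genes, and again across all probe sets, using limma 3.58.1 under R 4.3.3 with Benjamini-Hochberg adjustment and no replicate block, and the fit was tested on simulated data. Calls required an adjusted p under 0.05 and 2-fold or more. A fold against a line with no array above background was taken against that level and written "at least". By construction 6 of the 52 background genes lie above the level.

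The 7 genes and all lists were chosen with earlier results of these data known. Named genes are the 7, up to 3 called genes in each direction of a list or its 2 brightest members, 2 neighbours on each side and the 3 most similar patterns. INSR, INSRR, ROS1, MYCN, SHC1, PIK3R1, SDC2, ITGA6, TNC and the markers named singly were added after their values were seen. Alternatives were other choices of probe set, scaling, filter, variance model, threshold and replicates, and the methods' t-test.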

Additional observations from a re-analysis of the deposited data

How the results depend on the processing

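PTN kept its direction and its call in 18 of 19 alternatives, with log2 fold changes from -3.46 to -2.61 among them. Without the probe sets named _x_at or _s_at it read 0.18 from a probe set under the background level in both lines, the direction turned, and 0 of the 6 genes were called. With a fold of at least 1.5 the genes called were PTN, ALK and LTK, 3 in all, beside 2171 higher and 2162 lower over all genes. With no fold limit 5 of the 6 genes were called, beside 5634 higher and 4813 lower, whereas the reported counts were 1060 and 1185. LTK was higher and MDK lower in all 19 alternatives. ALK was lower in 18, and its log2 fold change went to -0.12 with values raised to the background level. With values raised to the 95th percentile level, chosen after seeing the data, ALK had no difference left. Alternatives that vary only the filter, replicate block, variance model, test or threshold leave every log2 fold change as it is. In those no direction could turn, so the counts of kept directions overstate the agreement. MDK, read by 1 probe set above the background level, was also left unchanged by probe set choice and raised values. PTPRZ1 changed sign in several alternatives and was called in none of its 18. Leaving out each array in turn gave log2 fold changes of -3.43 to -3.38 for PTN, -0.99 to -0.84 for ALK and 0.58 to 0.67 for LTK. With the replicate block the counts over all genes were 1060 and 1185, and PTN stayed at -3.41 (adjusted p = 7.46e-06 from limma); it changed no call of the 6 genes. The labels do not say whether the replicate numbers pair the arrays. Same-numbered arrays deviated from their line means with correlations of 0.00 to 0.03, and not every array correlated best with its own number. Correlations this small over 3 arrays a line cannot settle whether they are paired. The methods' t-test also gave 1060 and 1185 genes at the same fold limit, unadjusted and after Benjamini-Hochberg adjustment, these being all genes that differed by 2-fold or more. Signal at or under the background level limits what was measured of ALK, ALKAL2 and PTPRZ1.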
